A study of Homo sapiens with 12 samples.

Results

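The genes described here are 10 genes that mark T cells and natural killer (NK) cells: CD2, CD3D, CD3E, CD8A, LCK, ZAP70, TBX21, GATA3, GZMB and PRF1. All 15 probe sets annotated to a single one of these symbols were taken, out of 54613 probe sets, and the 10 genes stand among 19775 genes with at least 1 probe set. They were measured in L1236 and L428, established cell lines of classical Hodgkin lymphoma, on 12 arrays. The groups were L1236 after 5-Aza-dC, untreated L1236, L428 after 5-Aza-dC and untreated L428, with 3 arrays each. The treated cells spent 24 h in 1 µM 5-Aza-dC, were washed, and spent a further 72 h without the drug before RNA was taken. The labels name no vehicle for the untreated cells. They call the experiment a triplicate without saying whether each replicate was its own culture. The p-values therefore measure only the spread between these samples, which may be technical.

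Decitabine, the other name of 5-Aza-dC, enters DNA in place of deoxycytidine and binds DNA methyltransferases there, which leaves newly made DNA with less methylation. Hodgkin Reed-Sternberg cells derive from B cells, have lost much of the B-cell programme and are known to carry some proteins of other lineages, GATA3 among them. In T cells, the CD3 chains carry the T-cell receptor signal into the cell, the co-receptor CD8 brings the kinase LCK to the receptor, and LCK phosphorylates the chains so that ZAP-70 can bind and signal on. TBX21 (T-bet) and GATA3 direct alternative helper T-cell fates, and granzyme B and perforin are the killing proteins of cytotoxic granules.

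The arrays gave these limits. Across probe sets, the correlation was 0.982 to 0.997 within a group and 0.911 to 0.937 between the lines. Between treated and untreated arrays of the same line it was 0.962 to 0.987, which overlaps the range within a group. Probe sets are not independent replicates. Treated replicate 1 stood apart in both lines, with SDs of its deviations from the group mean of 0.350 in L1236 and 0.385 in L428, against 0.161 to 0.313 on the other 10 arrays. The source name of untreated L1236 replicate 1 describes treated L428 cells, against its own description. Its values correlated at 0.994 with untreated L1236 replicate 3 and at no more than 0.928 with any treated L428 array. Of the markers of Hodgkin Reed-Sternberg cells, TNFRSF8 (CD30) had log2 signals of 9.47 to 10.80 over the 12 arrays, while TRAF1 was at 1.94 to 2.29 in L1236. Of the B-cell markers, MS4A1 (CD20) was at 2.43 to 2.59 on all arrays. In L1236, 3 of the 8 Hodgkin Reed-Sternberg markers rose (CCL17, CCL22 and CD40). The summed linear signal of all 8 was 43155 to 65695 on treated arrays against 12942 to 14771 on untreated arrays. For 5 B-cell markers, none of which was called by limma (3 at an unadjusted p under 0.05), this sum was 4778 to 7985 in treated L1236 and 3205 to 4373 in untreated L1236. PAX5 made up nearly all of it, with 4683 to 7873 in treated L1236 and 3140 to 4288 in untreated L1236, and the other 4 markers summed to 94.9 to 112 in treated L1236 and 65.4 to 85.7 in untreated L1236. In L428 none of the 13 was called, with 4 at an unadjusted p under 0.05. The part of these changes in the results below was not tested. All 5 monocyte and macrophage markers stayed at 2.11 to 2.90 on all arrays. The summed linear signal of these 5 was 25.8 to 27.2 in treated L1236 against 27.1 to 27.4 in untreated L1236, and 26.8 to 27.5 in treated L428 against 27.1 to 28.5 in untreated L428.

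The methylation that decitabine is known to lower sits mostly at CpG dinucleotides. The windows around the start sites of 5 of the genes are therefore shown, with each CG in capitals. They are RefSeq sequences of GRCh38.p14, from 250 bases before to 50 bases after an annotated start, written 5′ to 3′ on the gene's strand. CD8A and ZAP70 are the genes whose responses differed between the lines on every probe set, TBX21 was called in both lines, CD2 was called in L428 and GZMB was called in neither. The windows are chr2:86808347-86808646 (minus strand) for CD8A, chr2:97713326-97713625 (plus) for ZAP70, chr17:47732986-47733285 (plus) for TBX21, chr1:116754180-116754479 (plus) for CD2 and chr14:24634141-24634440 (minus) for GZMB.
CD8A: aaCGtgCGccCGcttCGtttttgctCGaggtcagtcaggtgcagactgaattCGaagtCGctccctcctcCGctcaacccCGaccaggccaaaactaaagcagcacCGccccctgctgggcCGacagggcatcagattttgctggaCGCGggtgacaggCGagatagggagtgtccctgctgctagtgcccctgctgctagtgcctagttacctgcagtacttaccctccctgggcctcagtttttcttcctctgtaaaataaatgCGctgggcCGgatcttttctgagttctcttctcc
ZAP70: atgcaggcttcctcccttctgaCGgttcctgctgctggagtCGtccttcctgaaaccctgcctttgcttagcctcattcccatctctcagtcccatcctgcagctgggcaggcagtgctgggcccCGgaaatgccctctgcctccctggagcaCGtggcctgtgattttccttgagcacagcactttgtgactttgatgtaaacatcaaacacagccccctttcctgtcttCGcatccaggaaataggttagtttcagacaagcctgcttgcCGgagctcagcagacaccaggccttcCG
TBX21: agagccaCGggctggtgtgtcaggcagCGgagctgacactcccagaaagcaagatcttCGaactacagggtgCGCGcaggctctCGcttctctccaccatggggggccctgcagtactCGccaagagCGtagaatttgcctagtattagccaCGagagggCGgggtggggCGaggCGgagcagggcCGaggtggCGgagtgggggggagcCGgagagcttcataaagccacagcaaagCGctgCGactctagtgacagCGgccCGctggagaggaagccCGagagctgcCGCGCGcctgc
CD2: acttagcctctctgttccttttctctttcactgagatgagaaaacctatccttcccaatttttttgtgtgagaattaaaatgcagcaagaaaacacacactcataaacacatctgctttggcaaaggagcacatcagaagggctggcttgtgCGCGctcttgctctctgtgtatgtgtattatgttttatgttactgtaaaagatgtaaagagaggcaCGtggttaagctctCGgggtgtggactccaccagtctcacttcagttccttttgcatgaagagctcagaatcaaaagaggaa
GZMB: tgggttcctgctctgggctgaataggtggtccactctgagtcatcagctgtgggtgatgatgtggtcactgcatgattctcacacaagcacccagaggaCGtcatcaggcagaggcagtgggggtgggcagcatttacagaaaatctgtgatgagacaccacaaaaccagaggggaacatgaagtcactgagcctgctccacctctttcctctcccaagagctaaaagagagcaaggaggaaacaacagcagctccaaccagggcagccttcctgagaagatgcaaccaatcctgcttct
The TBX21 window held 23 CG, the CD8A window 16, the ZAP70 window 7, the CD2 window 4 and the GZMB window 1. Among 35116 such windows of 27305 genes the median was 14, and the shares with at least as many CG were 35.8% for TBX21, 47.5% for CD8A, 63.2% for ZAP70, 75.5% for CD2 and 96.0% for GZMB. The letters CG were counted, which read the same on both strands. For CD8A and ZAP70, which have 4 and 3 annotated starts, the outermost start is shown, and the windows of all starts held 6 to 25 CG for CD8A and 7 to 12 for ZAP70. The remaining windows held 9 for PRF1, 5 for CD3D, 4 and 10 for LCK and 5 to 36 for GATA3, and CD3E had no entry. Methylation was not measured, so the counts describe the sequence alone.

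The submitters name robust multichip averaging as the way each probe set on each array became a log2 signal. Whether a further step set the lower ends of the scale, at which many probe sets hardly vary, could not be settled from the sources used here. The array medians lay between 3.01 and 3.08, and a probe set that does not vary at a value near 2 is at the lower end of its own scale. A fold change from there depends on where the processing set that end, and levels of different probe sets were not set against each other. Changes are log2 differences ± SE from limma, fitted on all 54613 probe sets. A probe set is called at a Benjamini-Hochberg adjusted p under 0.05.

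In L1236, 5-Aza-dC raised genes of each kind: the co-receptor chain CD8A, the CD3 chain CD3D, both proximal kinases LCK and ZAP70, the transcription factors TBX21 and GATA3, and the pore-forming protein perforin (PRF1). Of the 15 probe sets, 9 rose, 0 fell and 6 were not called, against a background of 4.58% of all probe sets called higher and 4.44% called lower. The genes were chosen with earlier results of these data known, so this share is not a test against the background. The median change of the 15 was 1.59, and that of all probe sets was -0.03. CD2, CD3E and GZMB were not called. With each array centred on its median, 10 of the 15 rose, while over all probe sets 3223 rose and 9888 fell, against 2504 and 2423 as reported.

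**Figure D1:**
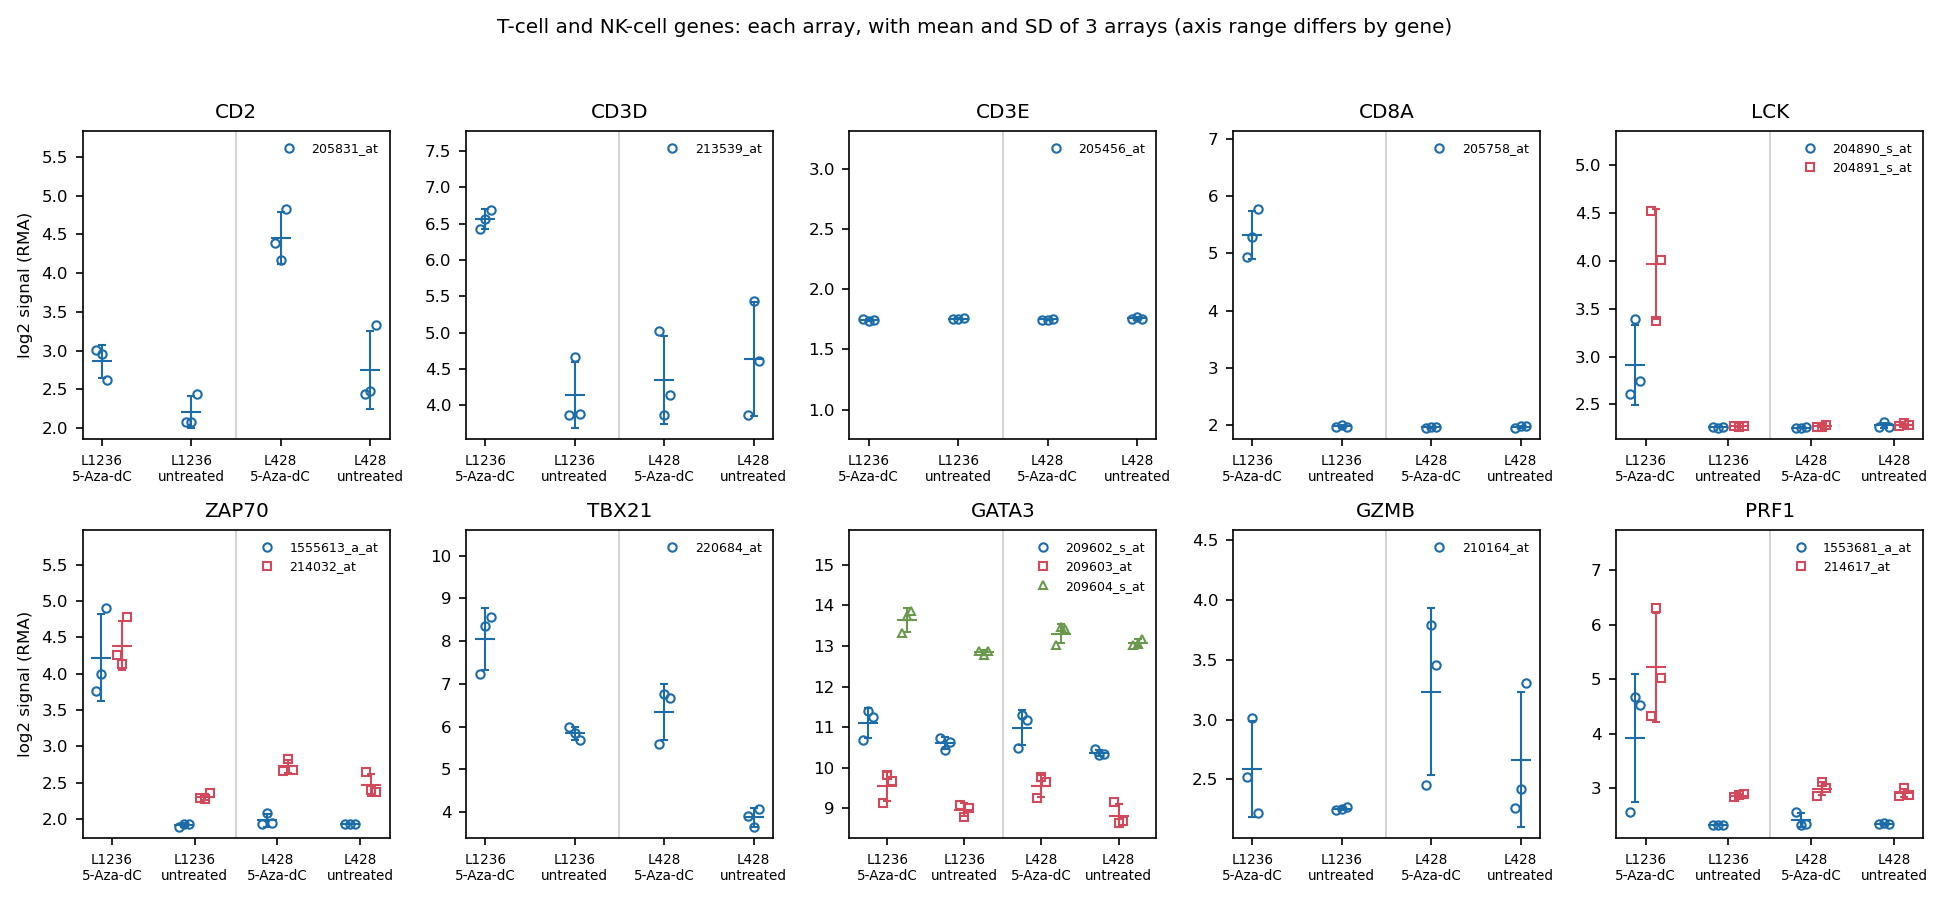
Log2 signal (vertical axis, range set for each gene) of every probe set of the 10 genes on each of the 12 arrays, with symbols for arrays and bars for mean and SD of 3 arrays. From left to right each panel shows L1236 after 5-Aza-dC, untreated L1236, L428 after 5-Aza-dC and untreated L428; CD8A stands at 4.93 to 5.77 in treated L1236 and at 1.94 to 2.0 on all other arrays, and CD3E stays at 1.74 to 1.77 throughout.

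Among the surface receptors, CD8A, the alpha chain of the co-receptor that binds MHC class I, read 4.93, 5.28 and 5.77 in treated L1236, against 1.95, 2.0 and 1.97 in untreated L1236. All treated arrays lay far above all untreated arrays. The difference was 3.36 ± 0.17, or 10.2-fold (limma adjusted p = 6.70e-06). CD8A remained called in all 22 alternative settings that tested it. Its difference in these was 1.33 to 3.64, and the lowest came with values under 4 raised to 4. CD3D, the delta chain of the CD3 complex, read 6.42, 6.57 and 6.69 in treated L1236, against 3.87, 4.66 and 3.88 in untreated L1236. Here too the groups did not overlap, with a difference of 2.43 ± 0.43 (limma adjusted p = 0.00953), and the call held in all 23 alternatives. CD3E, the epsilon chain that pairs with the delta chain in T cells, read 1.75, 1.74 and 1.75 in treated L1236, against 1.75, 1.75 and 1.76 in untreated L1236. The confidence interval of its difference ran from -0.04 to 0.02 on the log2 scale, and whether its 1 probe set, 205456_at, can detect the transcript was not tested. CD2, the adhesion receptor that binds CD58, read 3.01, 2.96 and 2.62 in treated L1236, against 2.08, 2.08 and 2.44 in untreated L1236. The groups did not overlap, but the difference of 0.66 ± 0.26 was not called (limma adjusted p = 0.170).

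The kinases were at the lower end of their scale in untreated L1236. ZAP70 is the Syk-family kinase that binds phosphorylated CD3 chains. Probe set 1555613_a_at read 3.76, 4.0 and 4.90 in treated L1236, against 1.88, 1.93 and 1.93 in untreated L1236, a difference of 2.30 ± 0.24 (limma adjusted p = 6.59e-04). Probe set 214032_at read 4.25, 4.13 and 4.77 in treated L1236, against 2.28, 2.28 and 2.35 in untreated L1236, a difference of 2.08 ± 0.15 (limma adjusted p = 7.73e-05). Both ZAP70 probe sets thus rose without overlap, by 4.94-fold and 4.24-fold. With values under 4 raised to 4, their differences were 0.30 and 0.39, and neither was called (limma adjusted p = 0.706 and 0.176). LCK is the Src-family kinase bound to CD4 and CD8. Its probe set 204891_s_at read 4.52, 3.37 and 4.01 in treated L1236, against 2.27, 2.27 and 2.28 in untreated L1236, a difference of 1.69 ± 0.22 (limma adjusted p = 0.00236, or 0.0515 with only the L1236 arrays in the fit). LCK probe set 204890_s_at read 2.60, 3.39 and 2.74 in treated L1236, against 2.27, 2.26 and 2.27 in untreated L1236, a difference of 0.65 ± 0.16 (limma adjusted p = 0.0423). Both probe sets were higher on every treated array, but they ranked the treated replicates differently. Probe set 204890_s_at lost its call in 10 of 12 fits that left out 1 array, with limma adjusted p-values of 0.0501 to 0.119. With values under 4 raised to 4, neither LCK probe set was called. The differences were then 0.17 on 204891_s_at (limma adjusted p = 0.706) and 0 on 204890_s_at.

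Of the transcription factors, TBX21 was present above the lower end already without treatment. It read 7.22, 8.35 and 8.57 in treated L1236, against 5.99, 5.86 and 5.69 in untreated L1236, a rise of 2.20 ± 0.39 or 4.60-fold (limma adjusted p = 0.0100). The groups did not overlap and the call held in all 23 alternatives. GATA3 was bright on all 12 arrays, with 209604_s_at at 13.32, 13.73 and 13.87 in treated L1236, against 12.87, 12.78 and 12.87 in untreated L1236. This probe set rose by 0.80 ± 0.15 (limma adjusted p = 0.0131), and the call was lost without untreated L1236 replicate 2 (0.0508) or treated L1236 replicate 2 (0.0571), and with only the L1236 arrays (0.0594). The other GATA3 probe sets had differences of 0.58 ± 0.22 for 209603_at and 0.50 ± 0.23 for 209602_s_at, with limma adjusted p-values of 0.144 and 0.223. On both, treated replicate 1 was the lowest treated array, and without all arrays numbered 1 both were called, at 0.84 and 0.78. Leaving out treated replicate 1 alone was enough for 209603_at (0.78, limma adjusted p = 0.0337).

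Perforin, which forms pores in the membrane of target cells, was read by a pair of probe sets that gave different calls. PRF1 probe set 214617_at read 4.33, 6.30 and 5.03 in treated L1236, against 2.84, 2.88 and 2.89 in untreated L1236, a rise of 2.35 ± 0.39 (limma adjusted p = 0.00753). This call was lost with only the L1236 arrays in the fit (0.0815) and with values under 4 raised to 4 (0.146). PRF1 probe set 1553681_a_at read 2.58, 4.67 and 4.53 in treated L1236, against 2.32, 2.34 and 2.34 in untreated L1236, a difference of 1.59 ± 0.46 that was not called (limma adjusted p = 0.0673). Treated replicate 1 was the lowest treated array on both, and without it 1553681_a_at was called, with a difference of 2.27 (limma adjusted p = 6.54e-07). GZMB, the serine protease that perforin lets into target cells, read 2.52, 3.02 and 2.22 in treated L1236, against 2.25, 2.26 and 2.27 in untreated L1236. These groups overlapped, and the difference of 0.33 ± 0.38 was not called (limma adjusted p = 0.559). In these bulk RNA samples, more cells with a transcript and more transcript per cell cannot be told apart. The CD8A, LCK, ZAP70, PRF1 and GZMB probe sets had SDs of 0.005 to 0.043 in untreated L1236 and of up to 1.17 after treatment, whereas limma used 1 estimate of spread for all groups.

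In L428, 2 of the 15 probe sets rose, 0 fell and 13 were not called, against a background of 1.82% of all probe sets called higher and 1.20% called lower. They were those of CD2 and TBX21. The median change was 0.08, and that of all probe sets was -0.02. CD2 read 4.39, 4.16 and 4.82 in treated L428, against 2.43, 2.48 and 3.33 in untreated L428. Every treated array was above every untreated one, with a rise of 1.71 ± 0.26 or 3.27-fold (limma adjusted p = 0.0109). With values under 4 raised to 4, the CD2 difference was 0.46 and was not called (limma adjusted p = 0.188). TBX21 read 5.59, 6.76 and 6.67 in treated L428, against 3.91, 3.65 and 4.08 in untreated L428. Its groups did not overlap either, with a rise of 2.46 ± 0.39 or 5.51-fold (limma adjusted p = 0.0133). The TBX21 call was lost without untreated L428 replicate 2 (0.0510) and without treated L428 replicate 2 (0.0583) or 3 (0.0633). Both calls were lost when the 6 L428 arrays were fitted alone, with adjusted p-values of 0.150 for CD2 and 0.103 for TBX21.

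The kinase, CD8A and CD3E probe sets stayed at or near their lower ends in L428. CD8A read 1.94, 1.96 and 1.96 in treated L428, against 1.95, 1.98 and 1.97 in untreated L428, a difference of -0.01 with a confidence interval from -0.39 to 0.36 (limma adjusted p = 0.977). LCK probe set 204891_s_at read 2.27, 2.27 and 2.28 in treated L428, against 2.27, 2.30 and 2.28 in untreated L428. ZAP70 probe set 214032_at read 2.67, 2.83 and 2.68 in treated L428, against 2.65, 2.40 and 2.37 in untreated L428, a difference of 0.25 ± 0.15 (limma adjusted p = 0.495). On these genes the treated and untreated arrays overlapped or differed by less than 0.5. CD3D read 5.02, 3.86 and 4.14 in treated L428, against 3.87, 5.44 and 4.60 in untreated L428, with overlapping groups and a difference of -0.29 ± 0.43 (limma adjusted p = 0.697).

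Among the factors and effectors in L428, GATA3 was bright and was not called. Probe set 209603_at read 9.26, 9.76 and 9.64 in treated L428, against 9.16, 8.63 and 8.68 in untreated L428, a difference of 0.73 ± 0.22 (limma adjusted p = 0.126). The other GATA3 probe sets had differences of 0.61 ± 0.23 and 0.22 ± 0.15. All 3 were called without the arrays numbered 1, at 1.05 for 209603_at, 0.90 for 209602_s_at and 0.32 for 209604_s_at, and 5 of the 15 probe sets rose in that setting. Without treated L428 replicate 1 alone, 209603_at (0.88, limma adjusted p = 0.0451) and 209602_s_at (0.86, 0.0266) were called. GZMB read 2.45, 3.79 and 3.46 in treated L428, against 2.26, 2.42 and 3.31 in untreated L428. These groups overlapped, with a difference of 0.57 ± 0.38 (limma adjusted p = 0.537). PRF1 had differences of 0.08 ± 0.39 on 214617_at and 0.07 ± 0.46 on 1553681_a_at, and its L428 arrays lay between 2.34 and 3.11.

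The response in L1236 was set against that in L428 by the interaction term of the same model. It was called for 4 of 15 probe sets, all with the larger rise in L1236, against a background of 1.42% of all probe sets called in that direction and 1.15% in the other. CD8A differed by 3.37 ± 0.23 (limma adjusted p = 1.51e-04). ZAP70 differed by 2.25 ± 0.34 on 1555613_a_at (limma adjusted p = 0.0112) and by 1.83 ± 0.21 on 214032_at (limma adjusted p = 0.00334). LCK differed by 1.71 ± 0.32 on 204891_s_at (limma adjusted p = 0.0284), and this call was lost in 8 of 12 fits that left out 1 array. In those fits the adjusted p-values were 0.0581 to 0.0746. The other LCK probe set, 204890_s_at, differed by 0.67 ± 0.23 and was not called (limma adjusted p = 0.227).

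**Figure D2:**
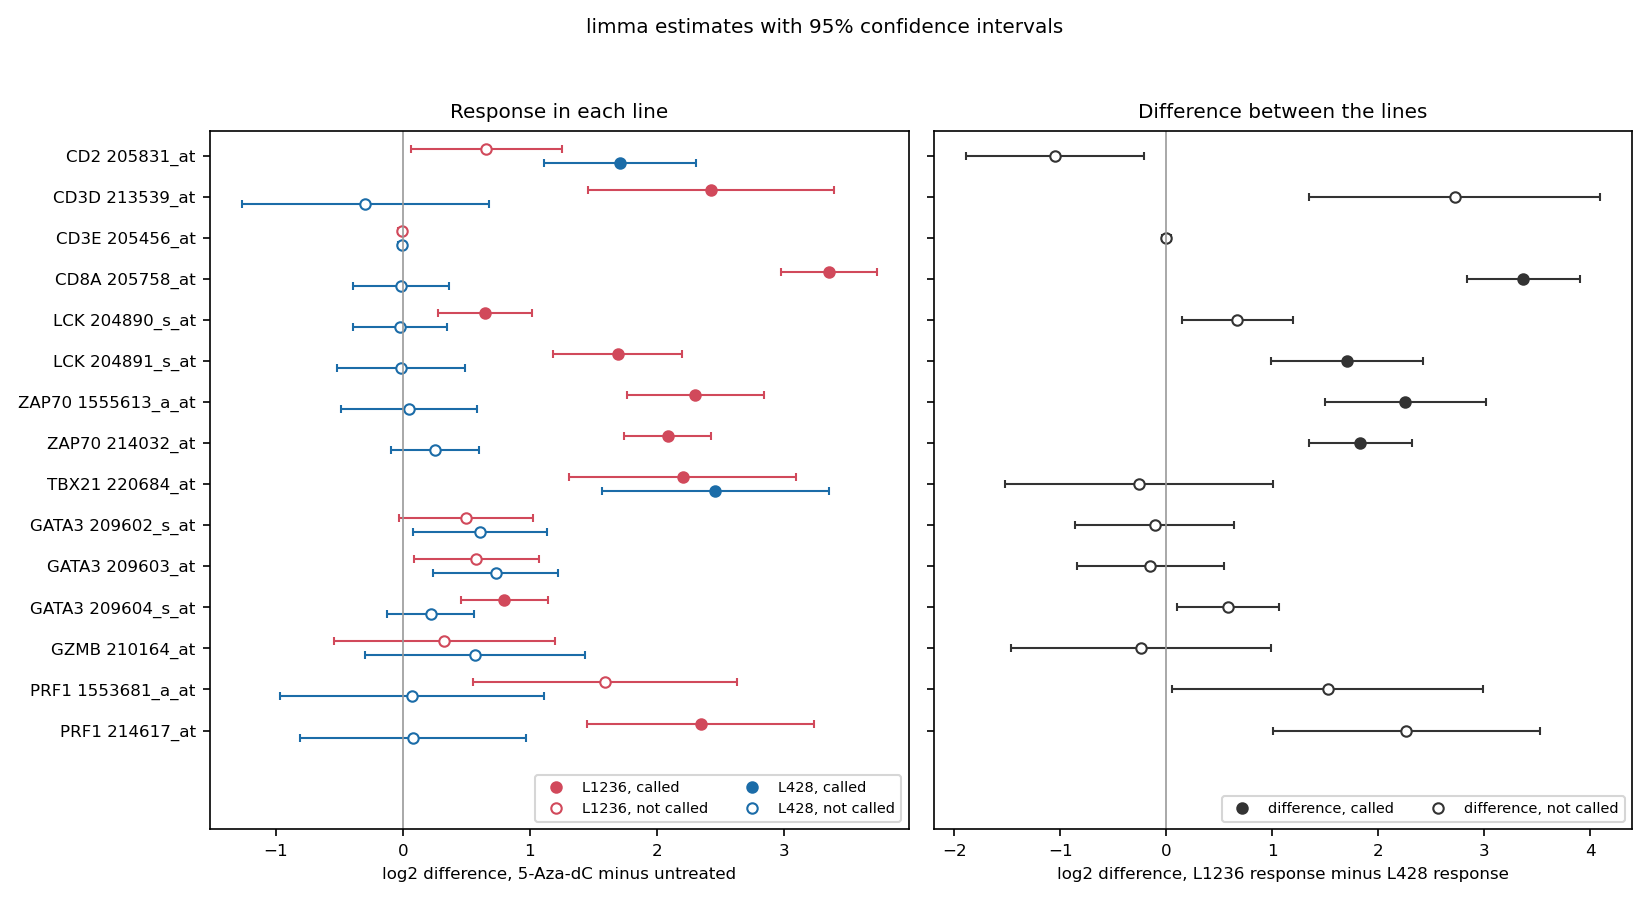
Log2 differences from limma with 95% confidence intervals for the 15 probe sets, left for 5-Aza-dC minus untreated in L1236 (upper of each pair) and L428 (lower), right for the L1236 response minus the L428 response. Filled points were called at an adjusted p under 0.05: 9 in L1236, 2 in L428 and 4 for the difference between the lines.

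For CD3D, called in L1236 and not in L428, the difference between the responses was 2.72 ± 0.60 and missed the threshold (limma adjusted p = 0.0562). It passed without untreated L428 replicate 1 (0.0269) or treated L428 replicate 1 (0.0217). For PRF1 it was 2.26 ± 0.56 on 214617_at (limma adjusted p = 0.0804) and 1.52 ± 0.65 on 1553681_a_at (limma adjusted p = 0.359). Without treated L1236 replicate 1, both were called (0.00704 and 7.83e-06), and 214617_at was also called without treated L1236 replicate 2 (0.0133). CD2 had the opposite sign, with -1.05 ± 0.37 (limma adjusted p = 0.240), so a larger response of CD2 in L428 was not shown. For TBX21, called in both lines, the difference was not called, at -0.26 ± 0.56 with a confidence interval from -1.52 to 1.00 (limma adjusted p = 0.952). Without the arrays numbered 1, 8 of 15 probe sets were called, all with the larger rise in L1236.

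Without treatment, 1 of the 15 probe sets differed between the lines, against a background of 11.2% of all probe sets called higher in L1236 and 9.89% called lower. TBX21 read 5.99, 5.86 and 5.69 in untreated L1236, against 3.91, 3.65 and 4.08 in untreated L428, a difference of 1.96 ± 0.39 or 3.90-fold (limma adjusted p = 0.00611). Across the groups TBX21 was highest in treated L1236, at 8.05 ± 0.72 (SD, n = 3). Treated L428 at 6.34 ± 0.65 and untreated L1236 at 5.84 ± 0.15 came next and differed by less than their spread, and untreated L428 was lowest at 3.88 ± 0.22. For CD2 the order was treated L428 at 4.46 ± 0.33, treated L1236 at 2.86 ± 0.21, untreated L428 at 2.75 ± 0.50 and untreated L1236 at 2.20 ± 0.21. The middle groups of CD2 differed by less than their spread. For GATA3 the untreated lines differed by 0.23 ± 0.23, 0.15 ± 0.22 and -0.24 ± 0.15 on its 3 probe sets, and none was called.

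For each gene called in a response, the 3 genes with the nearest profile over the 12 arrays were found by the root mean square distance after each profile had its own mean subtracted, as a description only. Nearest to CD8A were CETP, HOXD1 and PSORS1C2, at distances of 0.15, 0.19 and 0.23. ZAP70 was nearest to C1GALT1C1L, DDX4 and PLXND1 (0.19, 0.21 and 0.22), LCK to CPNE5, ZFP57 and KRT19 (0.11, 0.18 and 0.19), and PRF1 to MPZL2, NOS2 and ANO1 (0.18, 0.22 and 0.23). DDX4 is a germ-cell RNA helicase and KRT19 an epithelial keratin. CD3D was nearest to ATOSB, MFAP2 and CPE (0.32, 0.45 and 0.47). CD2 was nearest to CIDEC, LAP3 and ALOX12 (0.32, 0.32 and 0.34), and TBX21 to EPB41L5, TNFSF9 and SVIL (0.37, 0.44 and 0.45). GATA3, whose whole range was 1.09, had OTUD4, TIFA and BCOR nearest (0.07, 0.09 and 0.11).

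Other genes of the T-cell and NK-cell programmes were followed in 7 lists of 78 genes, of which 71 had a probe set of their own, each gene read by its brightest probe set. In L1236, 7 of the 71 rose and 3 fell, against a background of 7.41% of genes called higher and 4.99% called lower. Their median change was -0.01, and that of all genes was -0.03. In L428, 4 of the 71 rose and 0 fell, against 2.84% of genes called higher and 1.02% called lower, with medians of -0.01 for the lists and -0.02 for all genes. So the wider lists were called at about the background share in L1236. There, 7 of the 10 genes described above rose on their brightest probe set. The 10 genes and the lists were chosen with earlier results of these data known, so setting them against each other is a description and not a test. Without the arrays numbered 1, 27 of the 71 were called in L1236 and 14 in L428.

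**Figure D3:**
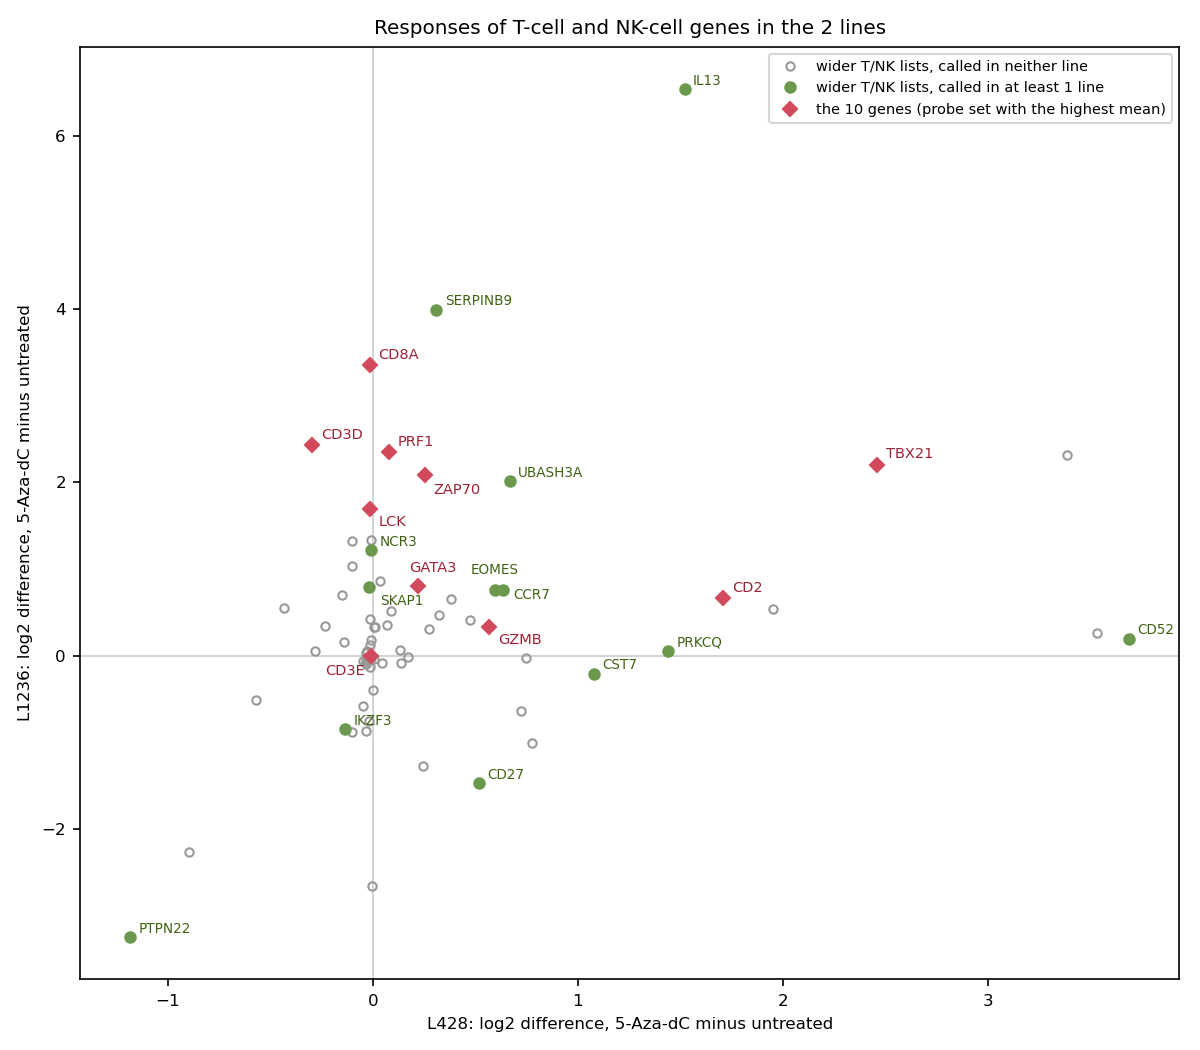
Log2 difference after 5-Aza-dC in L428 (horizontal) and in L1236 (vertical) for 71 genes of the wider T-cell and NK-cell lists (circles, filled where called in at least 1 line) and the 10 genes (diamonds), each at its brightest probe set. CD8A, CD3D, PRF1, ZAP70 and LCK lie high on the vertical axis and near 0 on the horizontal axis. CD52, IFNG, CRTAM and CD2 lie to the right, and TBX21 and CRTAM are high on both axes.

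Among partners of the T-cell receptor, of 14 genes of the receptor complex and surface list, 0 rose in L1236 and 1, CD27, fell. CD27, a costimulatory receptor of lymphocytes, averaged 10.06 ± 0.12 in treated L1236 and 11.53 ± 0.17 in untreated L1236 (SD, n = 3 each), a change of -1.47 ± 0.11 (limma adjusted p = 9.08e-05). The remaining CD3 chain CD3G was at 2.12 to 2.51, CD247 (CD3 zeta) at 2.68 to 2.87, and the pan-T-cell receptor CD5 at 2.14 to 2.45 over the 12 arrays. CD8B, the partner chain of CD8A, read 3.08, 2.96 and 3.04 in treated L1236, against 3.09, 3.10 and 3.16 in untreated L1236. In L428, CD52 and CD27 rose. CD52, a glycoprotein of lymphocytes, read 4.82, 7.50 and 7.61 in treated L428, against 2.96, 2.96 and 2.94 in untreated L428, a rise of 3.69 ± 0.63 (limma adjusted p = 0.0184). The CD52 call was lost without replicate 2 or 3 of either L428 group, with adjusted p-values of 0.0580 to 0.0727. CD27 rose by 0.52 ± 0.11 in L428 (limma adjusted p = 0.0421, or 0.0577 with replicate number as a block), and this call was lost in 7 of 12 fits that left out 1 array.

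In the other lists calls were scattered. Of 12 signalling genes measured, 2 rose and 1 fell in L1236. UBASH3A, a suppressor of T-cell receptor signalling, rose by 2.02 ± 0.45 (limma adjusted p = 0.0273) and the adaptor SKAP1 by 0.80 ± 0.20 (limma adjusted p = 0.0397), while the phosphatase PTPN22 changed by -3.25 ± 0.69 (limma adjusted p = 0.0217). In L428 the kinase PRKCQ rose by 1.44 ± 0.25 (limma adjusted p = 0.0182). Of 10 transcription factors, EOMES, the T-box relative of TBX21, rose by 0.75 ± 0.17 in L1236 (limma adjusted p = 0.0305), and the Ikaros-family gene IKZF3 changed by -0.85 ± 0.19 (limma adjusted p = 0.0281). None of the 10 factors was called in L428 by limma, with 1 at an unadjusted p under 0.05. That was EOMES, with 0.60 ± 0.17 (limma adjusted p = 0.122, or 0.0363 with replicate number as a block). Each of the 6 calls given above, from UBASH3A to IKZF3, was lost in 2 or more of the fits that left out 1 array, with adjusted p-values of 0.0521 to 0.133.

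Of 11 cytotoxic effector genes, 1 rose in each line. SERPINB9, an inhibitor of granzyme B, read 4.94, 6.48 and 6.49 in treated L1236, against 1.78, 2.08 and 2.08 in untreated L1236, a rise of 3.99 ± 0.37 (limma adjusted p = 3.96e-04). In L428 it was at 10.53 to 11.27 with and without treatment and was not called. CST7 (cystatin F), a protease inhibitor of cytotoxic cells, rose by 1.08 ± 0.17 in L428 (limma adjusted p = 0.0119). The CST7 call was lost without all arrays numbered 1 (0.0555), with array weights (0.0665) and with only the L428 arrays (0.178), and the difference was 0 with values under 4 raised to 4. The granule gene NKG7 read 5.84, 4.54 and 4.84 in treated L428, against 3.11, 3.13 and 3.12 in untreated L428, which did not overlap and was not called (limma adjusted p = 0.0749, or 0.0495 with replicate number as a block, where it was called). GNLY (granulysin) stayed at 2.44 to 2.53 on all arrays. Across CD3G, CD247, CD5, CD7, NKG7, GNLY and KLRD1 together, the summed linear signal was 42.5 to 64.3 in treated L1236 against 42.8 to 44.4 in untreated L1236, and 57.9 to 94.4 in treated L428 against 43.4 to 44.7 in untreated L428. Of this, NKG7 alone gave 7.67 to 28.0 in treated L1236 against 7.95 to 8.71 in untreated L1236, and 23.3 to 57.2 in treated L428 against 8.65 to 8.76 in untreated L428. The other 6 summed to 34.0 to 36.3 in treated L1236 against 34.2 to 35.7 in untreated L1236, and to 34.6 to 37.1 in treated L428 against 34.7 to 35.9 in untreated L428. The part of other cells in these values was not tested.

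Of 11 NK receptors measured, NCR3 (NKp30) rose in L1236, by 1.22 ± 0.12 (limma adjusted p = 5.22e-04). It read 3.50, 3.14 and 2.89 in treated L1236, against 1.96, 1.95 and 1.96 in untreated L1236. With values under 4 raised to 4, the NCR3 difference was 0. In L428, limma called 0 of the 11, with 1 at an unadjusted p under 0.05. That was CRTAM, a receptor of activated T and NK cells, named here after its values were seen. It read 2.51, 7.74 and 7.52 in treated L428, against 2.52, 2.57 and 2.53 in untreated L428, a difference of 3.39 ± 1.34 (limma adjusted p = 0.249). In L1236 it read 2.84, 6.20 and 5.48 on treated arrays, against 2.52, 2.52 and 2.53 on untreated arrays, a difference of 2.32 ± 1.34 (limma adjusted p = 0.291). Replicate 1 was the low treated array in both lines, and without all arrays numbered 1 CRTAM was called in both (5.08 in L428 and 3.32 in L1236, limma adjusted p = 3.83e-04 and 8.45e-04). Leaving out treated L428 replicate 1 alone gave 5.09 in L428 (limma adjusted p = 0.00628). Leaving out treated L428 replicate 2 or 3 instead gave 2.48 or 2.59 in L428 (limma adjusted p = 0.635 and 0.552). In L1236, leaving out treated L1236 replicate 1 alone gave 3.32, which was not called (limma adjusted p = 0.131). KLRF1, also named after its values were seen, read 5.44, 2.70 and 2.90 in treated L1236, against 6.66, 5.83 and 5.36 in untreated L1236. These groups overlapped, and the difference of -2.27 ± 0.98 was not called (limma adjusted p = 0.198). With replicate number as a block it was called (0.0163), and also without all arrays numbered 1 (-2.79, limma adjusted p = 0.00375).

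Of 11 cytokine and receptor genes, 2 rose in L1236. IL13, a cytokine of type 2 helper cells that Hodgkin lymphoma cells are known to secrete, read 12.57, 14.58 and 14.70 in treated L1236, against 8.26, 6.99 and 6.99 in untreated L1236, a rise of 6.53 ± 0.82 (limma adjusted p = 0.00183). The chemokine receptor CCR7 rose by 0.75 ± 0.16 (limma adjusted p = 0.0205), a call lost without replicate 2 or 3 of either L1236 group (0.0744 to 0.0837). In L428, limma called 0 of these 11, with 3 at an unadjusted p under 0.05. IFNG (interferon gamma), also named after its values were seen, read 2.26, 7.60 and 7.56 in treated L428, against 2.26, 2.29 and 2.27 in untreated L428. Treated replicate 1 lay at the untreated level and the other two far above it. The difference was 3.53 ± 1.21 (limma adjusted p = 0.184), and without treated L428 replicate 1 it was 5.31 (limma adjusted p = 2.27e-06). Without treated L428 replicate 2 or 3 it was 2.63 or 2.65, with a limma adjusted p of 0.525 in each fit. In L1236, IFNG read 2.25, 3.01 and 2.30 on treated arrays, against 2.26, 2.26 and 2.27 on untreated arrays. The ligand of CD2, CD58, was at 12.96 to 13.53 on all 12 arrays and was called in neither line. CD48 read 8.87, 6.37 and 5.16 in treated L1236, against 9.96, 9.11 and 9.33 in untreated L1236, a difference of -2.67 ± 0.75 that was not called (limma adjusted p = 0.0639). Without treated L1236 replicate 1 it was -3.70 (limma adjusted p = 3.41e-04). Without treated L1236 replicate 2 or 3 it was -2.45 or -1.85 (limma adjusted p = 0.207 and 0.166).

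Between the untreated lines, 11 of the 71 genes were higher and 11 lower in L1236, against 14.5% and 12.7% of all genes. THEMIS, a signalling protein of developing T cells, averaged 2.71 in untreated L1236 and 13.48 in untreated L428, a difference of -10.78 ± 0.25 (limma adjusted p = 8.83e-09). The kinase FYN differed by -6.38 ± 0.37 (limma adjusted p = 3.11e-06), and the adaptor LCP2 (SLP-76) by 8.58 ± 0.32 (limma adjusted p = 1.94e-07). Among the other signalling genes, SH2D2A (2.99) and PLCG1 (1.58) were higher in L1236 and PRKCQ (-1.20) was lower. Of the transcription factors, MAF (3.01), EOMES (1.86) and RUNX3 (1.18) were higher in L1236, and STAT4 (-3.81) and TOX (-2.05) were lower. CD27 (8.20), the CD2-family ligand CD48 (6.75), the cytokine IL4 (5.24) and CCR7 (0.80) were higher in L1236. The granzyme B inhibitor SERPINB9 (-8.63), the granule proteoglycan SRGN (-0.74), the chemokine receptor CCR4 (-2.43), the cytokine IL5 (-2.35) and the receptor chain IL2RB (-1.04) were lower. The values in brackets are log2 differences, with limma adjusted p-values of 2.55e-10 to 0.0104. For the responses, the difference between the lines was called for 4 of the 71. SERPINB9 at 3.68 ± 0.53 and NCR3 at 1.23 ± 0.17 were higher in L1236, against 2.13% of genes called in that direction and 1.46% in the other. CD27 at -1.99 ± 0.15 and CST7 at -1.29 ± 0.24 were lower, and the CST7 call was lost in 9 of 12 fits that left out 1 array. With values under 4 raised to 4, this difference was 0 for NCR3 and CST7, and SERPINB9 was not called (1.66, limma adjusted p = 0.269).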

How the data were processed

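RNA of 12 samples was measured on Affymetrix arrays. The deposited values are log2 signals from RMA (robust multichip averaging), as the submitters' processing notes state, and no version is given in the sources used here. A whole-transcript array is named in the design text, but the deposited identifiers belong to a 3′ array. Array number limits the precision.

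Groups came from the sample descriptions. After leaving out 62 control probe sets, limma 3.58.1 (R 4.3.3) was fitted with 4 group means to 54613 probe sets on all arrays, with empirical Bayes moderation and two-sided tests. The code was checked on simulated data with independent noise of equal spread in the 4 groups. That check does not cover the unequal spreads or the deviating arrays of these data. Symbols came from the platform annotation (41091 probe sets with 1 symbol, 1801 with several, 11721 with none), updated through Entrez identifiers for 41037. Named were all probe sets of the 10 genes, up to 3 called genes per wider list, direction and comparison (largest change first, at the brightest probe set), and the 3 nearest profiles. Of the 78 listed genes, 71 were used, and some of the others are not reported here. The members and lists were chosen with earlier results of these data known.

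Deviations from group means correlated between L428 arrays with the same number in their titles at 0.260, 0.154 and 0.167, all over the minimum of 0.1 used. Replicate number was therefore used as a block in an alternative fit. The main fit had neither pairs nor a block. Treated and untreated L428 arrays numbered 2 and 3 correlated as highly across numbers (0.168 and 0.161), so that number 1 alone stands out. For L1236 the values were 0.069, 0.012 and 0.103. Between the lines, the deviations of arrays numbered 1 correlated at 0.402 (treated) and 0.292 (untreated). For numbers 2 and 3 these correlations were 0.278 and 0.223 (treated) and 0.185 and 0.081 (untreated). Whether number 1 marks a batch common to both lines was not tested. Alternatives were other scalings, a filter on dim probe sets, a floor at 4, 1 probe set a gene, array weights, another moderation, a replicate block, fewer arrays in the fit and leaving out arrays.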

Additional observations from a re-analysis of the deposited data

Results flagged for a closer look

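A test of the difference between the lines singled out 4 probe sets. The response to 5-Aza-dC was larger in L1236 than in L428 by 3.37 for CD8A (205758_at), by 2.25 and 1.83 for ZAP70 (1555613_a_at and 214032_at) and by 1.71 for LCK (204891_s_at), on the log2 scale, with limma adjusted p-values of 1.51e-04, 0.0112, 0.00334 and 0.0284. In both untreated lines and in treated L428, all 4 lay between 1.88 and 2.83. The LCK value is not past the threshold in 8 of 12 fits that left out 1 array. Only that of CD8A is past it when values under 4 are raised to 4, where it is 1.33. The other LCK probe set, 204890_s_at, was not singled out (0.67, limma adjusted p = 0.227).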

How the results depend on the processing

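None of the calls of the 15 probe sets turned its direction in any alternative tried. The number called after 5-Aza-dC in L1236 was 9, and 7 to 11 with single arrays left out, 4 of the 6 tested without the dimmer probe sets, 4 with values under 4 raised to 4 and 5 with only the L1236 arrays. In L428 it was 2, and 1 to 4 with single arrays left out. It was 1 without untreated replicate 2 or treated replicate 2 or 3, and 4 without treated replicate 1. With the floor it was 1 (TBX21), and without the dimmer probe sets 1 (TBX21, as CD2 was filtered out). It was 5 without all arrays numbered 1 and 0 with only the L428 arrays. For the difference between the responses it was 4, and 3 to 7 with single arrays left out (7 without treated L1236 replicate 1). It was 1 with the floor (CD8A) and 8 without all arrays numbered 1. Without the dimmer probe sets 2 others were called, CD3D (limma adjusted p = 0.0207) and PRF1 214617_at (0.0318). The 4 called in the main fit, of CD8A, ZAP70 and LCK, were filtered out in that setting and not tested. Between the untreated lines the number called was 1 with any single array left out, and 2 without all arrays numbered 1 or with only the untreated arrays. The floor and the filter by construction remove differences below them or the probe sets that show them. The cause of the other changes was not tested. With replicate number as a block the numbers were 9, 2, 4 and 1 as in the fit without it, and no call of the 15 probe sets changed. Over the 71 wider genes and all comparisons, 8 calls were gained with the block and 1, CD27 in L428, was lost. EOMES (0.60) and NKG7 (1.95) were gained as rises in L428. In L1236, LAT (1.03) and RUNX3 (0.65) were gained as rises, and TOX (-1.28) and KLRF1 (-2.27) as falls.

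Over the 71 genes of the wider lists, the 10 called in L1236 became 14 with the block, 21 with median centring, 17 with quantile normalization, 47 with array weights, 27 without all arrays numbered 1 and 4 to 25 with single arrays left out. The 4 in L428 became 5 with the block, 2 with array weights, 0 with the floor, 0 with only the L428 arrays, 14 without all arrays numbered 1 and 1 to 11 with single arrays left out. The 4 called for the difference became 1 with the floor, 9 with array weights, 23 without all arrays numbered 1 and 3 to 16 with single arrays left out. Over all 54613 probe sets, limma called 4927 in L1236 and 1647 in L428. With single arrays left out these were 2502 to 8725 and 717 to 6091, without all arrays numbered 1 they were 12713 and 9956, with the floor 3099 and 821, without the dimmer probe sets 6434 and 2539, and with only the arrays of the line 3084 and 244. Median centring gave 13111 and array weights, whose estimation stopped early, 29528 in L1236. The 1403 called for the difference became 7816 without all arrays numbered 1, 2876 with array weights, 848 with the floor and 733 to 3588 with single arrays left out. Without detection calls, signal over background could not be given, which limits every statement on probe sets near 2.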
